A study of Mus musculus with 6 samples.

Results

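A set of 10 genes of the neutrophil lineage was followed in the epididymal white adipose tissue (eWAT) of cachectic and control mice: the primary granule genes Elane, Mpo and Prtn3, the secondary granule genes Ltf, Camp and Ngp, and the mature neutrophil genes S100a8, S100a9, Retnlg and Csf3r. They were taken by gene name, and all 10 were found among the 54532 genes of the count table. The study used male C57BL/6 mice of 6 to 10 weeks, and its cachectic animals had received LLC cells (Lewis lung carcinoma, an established mouse tumour line) under the skin. The epididymal fat pad was removed on day 21, and 3 cachectic and 3 control libraries were sequenced from total tissue RNA. What the control mice received in place of tumour cells was not given in the sources used here, so inoculation, tumour burden and wasting cannot be told apart. Each library was taken as 1 mouse. Total counts were 18766846, 18475204 and 18855546 in control replicates 1 to 3 and 17278966, 15711022 and 14928766 in cachexia replicates 1 to 3.

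Neutrophils are made in the bone marrow and load their granules in a fixed order. Promyelocytes transcribe the primary granule proteases and myeloperoxidase, myelocytes then transcribe the secondary granule proteins, and both programmes are largely shut off before the cell enters blood. Mature neutrophils keep high levels of S100a8 and S100a9, which encode the chains of calprotectin, and carry the receptor for granulocyte colony-stimulating factor on their surface. Transcripts of the early genes in a peripheral tissue are therefore usually scarce beside those of the late genes.

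The promoters of 4 of the genes are shown, because they stand for the 3 classes and because Elane and Prtn3 lie side by side on chromosome 10 and differed in their values. Each runs from 250 bases before to 50 bases after the RefSeq start site on build GRCm38.p6, 5′ to 3′, and all 4 genes are on the plus strand. Capitals mark matches, on either strand, to TTNNGNAA (a core of sites for C/EBP factors), GAGGAA (a core of sites for PU.1) or TATAAA (the letters of a TATA box). They cover chr3:90668821-90669120 for S100a8, chr9:110419558-110419857 for Ngp, chr10:79886062-79886361 for Elane and chr10:79879417-79879716 for Prtn3.
S100a8: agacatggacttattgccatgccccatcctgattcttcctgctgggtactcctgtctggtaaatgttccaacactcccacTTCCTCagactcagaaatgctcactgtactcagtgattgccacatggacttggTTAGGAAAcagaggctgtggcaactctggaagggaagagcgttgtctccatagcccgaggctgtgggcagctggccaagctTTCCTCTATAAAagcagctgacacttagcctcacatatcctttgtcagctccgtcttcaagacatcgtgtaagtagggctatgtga
Ngp: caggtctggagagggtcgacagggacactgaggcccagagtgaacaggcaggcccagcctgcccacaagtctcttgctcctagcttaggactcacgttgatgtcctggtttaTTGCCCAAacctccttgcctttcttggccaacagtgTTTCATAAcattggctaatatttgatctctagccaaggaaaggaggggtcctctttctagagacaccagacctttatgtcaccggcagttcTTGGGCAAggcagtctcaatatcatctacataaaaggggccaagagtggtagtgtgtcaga
Elane: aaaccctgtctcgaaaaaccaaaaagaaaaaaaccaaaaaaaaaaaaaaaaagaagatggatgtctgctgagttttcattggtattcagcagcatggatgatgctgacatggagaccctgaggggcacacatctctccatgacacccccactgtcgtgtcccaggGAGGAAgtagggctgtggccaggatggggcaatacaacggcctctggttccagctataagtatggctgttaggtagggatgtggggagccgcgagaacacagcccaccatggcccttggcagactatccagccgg
Prtn3: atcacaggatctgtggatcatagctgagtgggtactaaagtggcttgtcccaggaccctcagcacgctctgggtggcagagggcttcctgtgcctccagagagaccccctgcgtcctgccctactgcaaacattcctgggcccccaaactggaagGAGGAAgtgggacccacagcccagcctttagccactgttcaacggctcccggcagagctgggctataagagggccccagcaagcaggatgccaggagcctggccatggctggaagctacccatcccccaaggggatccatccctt
In the S100a8 promoter the capitals nearest the start join a reversed PU.1 core to the TATAAA letters without overlap. The C/EBP letters were found in 5 of the 10 promoters, namely those of Ltf, Ngp, Retnlg, S100a8 and S100a9, and in 40.7% of 32851 mouse promoters of the same length. The PU.1 letters were found in 6 (Csf3r, Elane, Ltf, Mpo, Prtn3 and S100a8), against 28.3% of all promoters, and the TATAAA letters in 2, against 13.6%. In S100a8 these began 30 bases before the start site, and in S100a9 they began at the start site itself, which is not where a TATA box lies. These matches describe letters only.

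The first question was which of the genes differed between cachectic and control eWAT. Of the 9 genes tested, 7 were higher in cachectic eWAT and 0 were lower (edgeR's quasi-likelihood test, Benjamini-Hochberg adjusted over 16003 genes). The 7 were Elane, Ltf, Ngp, S100a8, S100a9, Retnlg and Csf3r, while Prtn3 and Camp did not pass and Mpo had too few counts to be tested. Over all genes tested, 17.6% were called, 9.0% as higher and 8.63% as lower. In 8 of the 10 genes, every cachectic mouse lay above every control. These 8 included Mpo, which was not tested and had 3 counts in each control. The same held for 20.4% of all genes tested, a share that leaves out untested genes such as Mpo. The median log2 fold change was 4.95 over the 9 genes and -0.0031 over all genes tested. Ltf, Ngp and Retnlg reached the count minimum in at most 1 control, and S100a9 and Camp in 2, so these 5 entered the test through the cachectic libraries and the counts over tested genes describe the genes without adding weight. In bulk tissue, more neutrophils and more RNA per neutrophil cannot be told apart.

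**Figure D1:**
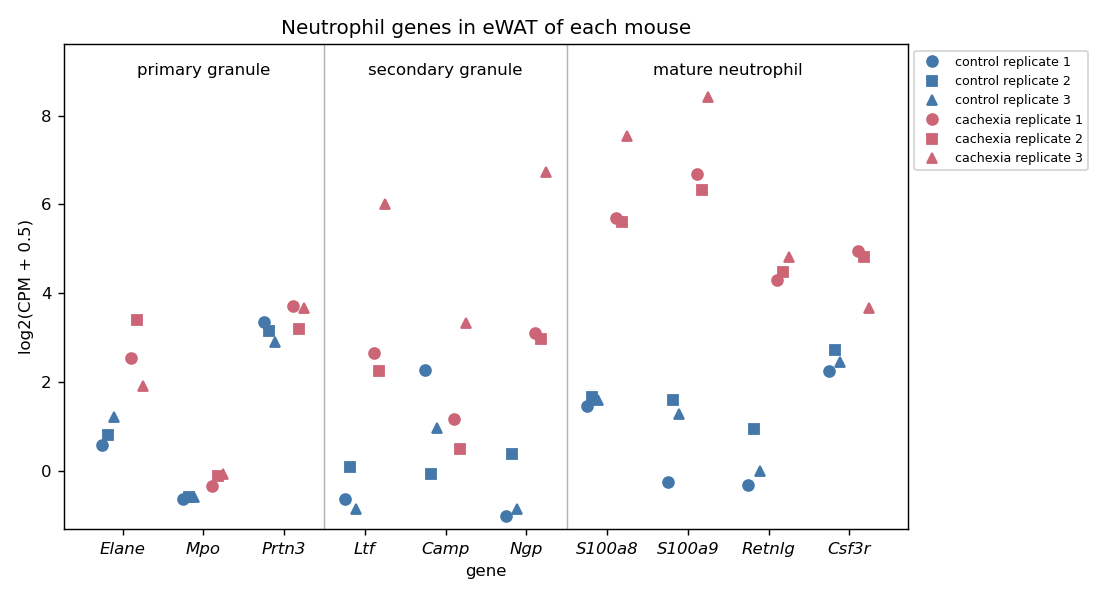
Level of each of the 10 genes in each mouse, as log2(CPM + 0.5), with control mice in blue and cachectic mice in red and a marker shape for each replicate number; vertical lines part the primary granule, secondary granule and mature neutrophil genes. The groups are apart in every gene but Prtn3 and Camp, and cachexia replicate 3 stands far above the other cachectic mice in Ltf, Camp and Ngp.

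The mature neutrophil genes were described first, since all 4 rose. S100a8 (chr3:90668978-90670035), 1 chain of calprotectin, stood at 2.26, 2.69 and 2.55 CPM (counts scaled to library size) in control replicates 1 to 3 and at 51.4, 48.2 and 186 CPM in cachexia replicates 1 to 3. The controls were alike, the first 2 cachectic mice were alike, and the third was well above both. The log2 fold change was 5.25 (SE 0.61, adjusted p = 0.00276). S100a9 (chr3:90692632-90695721), the other chain, stood at 0.351, 2.52 and 1.93 CPM in controls and at 102, 79.1 and 339.8 CPM in cachectic mice. The groups were again far apart, with the lowest value in control replicate 1 and the highest in cachexia replicate 3. Its log2 fold change was 6.78 (SE 0.82, adjusted p = 0.00321).

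Retnlg (chr16:48872621-48874496), a resistin-like protein of granulocytes, stood at 0.301, 1.43 and 0.510 CPM in controls and at 19.3, 21.9 and 27.7 CPM in cachectic mice. The cachectic mice were close to one another here, and the log2 fold change was 4.95 (SE 0.48, adjusted p = 0.00162). Csf3r (chr4:126024550-126044440), the receptor for granulocyte colony-stimulating factor, stood at 4.27, 6.08 and 4.99 CPM in controls and at 30.5, 27.6 and 12.3 CPM in cachectic mice. In this gene cachexia replicate 3 was the lowest cachectic mouse, though still above all controls. The log2 fold change was 2.20 (SE 0.35, adjusted p = 0.00710). All 4 calls held without any one of the 6 libraries.

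On a scale that allows genes to be compared, CPM per kilobase of gene length, S100a9 had the highest mean level in cachectic eWAT, at 332.6 ± 276.6 (SD, n = 3), followed by S100a8 at 137 ± 113 and Retnlg at 38.8 ± 7.27. The ranges of mean ± SD of the first 2 overlapped, but within each cachectic mouse S100a9 was the higher. Per kilobase, the ratio of S100a9 to S100a8 was 2.63, 2.18 and 2.43 in cachexia replicates 1 to 3, and 0.207, 1.24 and 1.00 in control replicates 1 to 3. The cachectic ratios lay close together and above all 3 control ratios, 1 of which rested on 7 S100a9 counts. Ngp at 33.2 ± 46.6, Ltf at 7.19 ± 9.92, Csf3r at 6.50 ± 2.70, Prtn3 at 6.45 ± 1.23, Elane at 6.34 ± 3.58, Camp at 5.41 ± 6.35 and Mpo at 0.115 ± 0.0261 CPM per kilobase completed the order. The ranges of mean ± SD of neighbours from Retnlg to Camp overlapped, which takes no account of the genes being measured in the same mice. Retnlg stood at 32.6 and 37.0 against 6.63 and 5.98 for Ngp in cachexia replicates 1 and 2. In replicate 3 it stood at 46.8 against 87.1. In controls the order began with Prtn3 at 4.85 ± 0.796 CPM per kilobase, ahead of S100a8 at 3.60 ± 0.320.

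**Figure D2:**
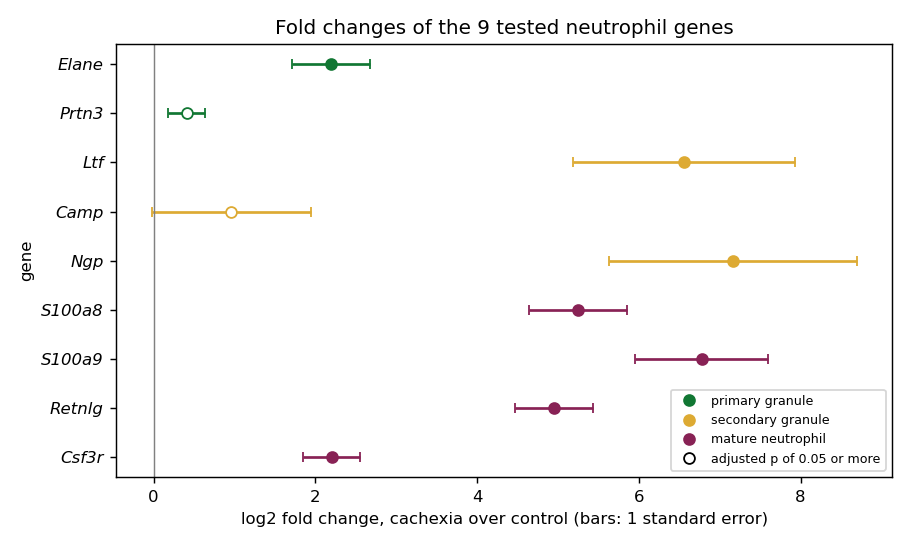
Log2 fold change of cachexia over control for the 9 genes tested with edgeR, with bars of 1 standard error; filled points passed an adjusted p of 0.05 and open points did not. Ngp lies at 7.17, or at 4.76 and below S100a9 (5.85) without cachexia replicate 3, and rests on 0, 14 and 1 counts in controls. The longest bars belong to Ngp and Ltf, while Prtn3 at 0.41 and Camp at 0.96 are open.

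Of the secondary granule genes, Ltf and Ngp rose and Camp did not pass the test. Ltf (chr9:111019271-111042767), which encodes the iron-binding protein lactoferrin, stood at 0.151, 0.573 and 0.0567 CPM in controls and at 5.83, 4.30 and 64.3 CPM in cachectic mice. Those control values were 3, 10 and 1 counts, and cachexia replicate 3 alone held 981. The log2 fold change was 6.56 (SE 1.37, adjusted p = 0.0180). Ngp (chr9:110419747-110423012), a cathelicidin-related granule protein, stood at 0, 0.802 and 0.0567 CPM in controls and at 8.11, 7.31 and 106 CPM in cachectic mice. The pattern over mice was that of Ltf, with 139, 119 and 1623 counts in cachectic mice against 0, 14 and 1 in controls. The log2 fold change was 7.17 (SE 1.53, adjusted p = 0.0196).

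Both secondary granule calls depended on the model and on single libraries. With all libraries, neither passed with limma-voom (adjusted p = 0.125 for Ltf and 0.131 for Ngp) or with limma on log2(FPKM + 1) (adjusted p = 0.124 and 0.0523). Without cachexia replicate 3 the log2 fold changes fell to 4.27 for Ltf (adjusted p = 0.0186) and 4.76 for Ngp (adjusted p = 0.0373), and both calls were kept. The call for Ltf was lost without control replicate 1, 2 or 3 (log2 fold change 6.27, 7.77 and 6.10, adjusted p = 0.0544, 0.0508 and 0.0766). That for Ngp was lost without control replicate 1 or 3 (6.54 and 6.70, adjusted p = 0.0524 and 0.0806). Without control replicate 2 the log2 fold change of Ngp was 10.22, with 1 count left in the controls.

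Camp (chr9:109847379-109849617), the mouse cathelicidin, stood at 4.31, 0.459 and 1.47 CPM in controls and at 1.75, 0.921 and 9.64 CPM in cachectic mice. The groups overlapped, with control replicate 1 above both of the first 2 cachectic mice. Its log2 fold change of 0.96 (SE 0.99, adjusted p = 0.532) turned to -0.64 without cachexia replicate 3 and was 2.07 without control replicate 1, and neither passed the test (adjusted p = 0.661 and 0.235). Control replicate 1 stood apart from the other libraries in further genes. By a rule chosen after the data were seen, 71 genes had at least 300 counts and at least 20 times the CPM of both other controls in that library, against 0 in control replicates 2 and 3 and 0, 1 and 0 in the cachectic libraries. Among the 71 were the epithelial genes Epcam (935, 3 and 2 counts in controls 1 to 3) and Foxj1 (1102, 0 and 2 counts). Markers of the epididymis itself summed to 4.36, 1.15 and 1.13 CPM in controls and 1.57, 0.553 and 0.983 CPM in cachectic mice, with Adam7 the most abundant (3.06 CPM in control replicate 1) and Lcn5, Lcn6, Lcn8, Spint4 and Cst11 at 3 counts or fewer in every library. The part of epithelium or epididymis in the Camp value was not tested.

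Of the primary granule genes, Elane rose, Prtn3 did not pass and Mpo was not tested. Elane (chr10:79886247-79888215), which encodes neutrophil elastase, stood at 1.00, 1.26 and 1.81 CPM in controls and at 5.31, 10.1 and 3.28 CPM in cachectic mice. The groups did not overlap, and cachexia replicate 2 was the highest. Elane rose with a log2 fold change of 2.20 (SE 0.48, adjusted p = 0.0209). The call was lost without control replicate 1, 2 or 3 (adjusted p = 0.0514, 0.0743 and 0.0589) and without cachexia replicate 2 (adjusted p = 0.0529), with log2 fold changes of 1.66 to 2.45 in those fits.

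Prtn3 (chr10:79874476-79883174), which encodes proteinase 3, stood at 9.78, 8.37 and 7.03 CPM in controls and at 12.6, 8.72 and 12.2 CPM in cachectic mice. The groups overlapped, since cachexia replicate 2 lay below control replicate 1. The log2 fold change was 0.41 (SE 0.23, adjusted p = 0.243). Mpo (chr11:87793581-87804413), the gene of myeloperoxidase, had 3 counts in each control and 5, 7 and 7 counts in cachectic mice. The groups were apart at a depth that allows no firm statement, and a fit without the count filter gave a log2 fold change of 1.22 (SE 0.85, adjusted p = 0.449).

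Elane and Prtn3 are neighbours, with 3072 bases between them, and Elane is followed after 2637 bases by Cfd, which encodes the adipocyte product adipsin and is among the most abundant transcripts of fat. Cfd stood at 9045, 10637 and 10801 CPM in controls and at 17594, 12693 and 9077 CPM in cachectic mice, and it did not pass the test (log2 fold change 0.37, adjusted p = 0.456). Among cachectic mice, replicate 1 was the highest in Cfd and replicate 2 in Elane, and replicate 3 was the lowest in both. The short gene Gm19810, 496 bases after Elane, rose with a log2 fold change of 1.81 (adjusted p = 0.0233). In control replicate 2, at 0.459 CPM, it lay under the count minimum, so it entered the test through the cachectic libraries. The Prtn3 gene model begins 5191 bases before its RefSeq start site, with a noncoding transcript of 4 exons, and overlaps Plppr3 on the other strand by 159 bases. Whether the counting used strand was not given in the sources used here, so reads of the overlap cannot be assigned, and how much of the Prtn3 count comes from the noncoding transcript was not tested. Mpo is overlapped by Gm11505 over 5361 bases of the other strand, which had 0 counts in all libraries.

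With 3 mice a group, an exact two-sided permutation test cannot give less than 0.1. It gave p = 0.1 for 8 of the genes on log2(CPM + 0.5), 0.2 for Prtn3 and 0.6 for Camp (exact permutation tests, n = 3).

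The second question was how the 3 classes stood to one another. Summed over its genes in CPM per kilobase, the mature class stood at 5.62, 12.8 and 9.61 in controls and at 310.3, 265.6 and 969 in cachectic mice. The primary class stood at 6.71, 6.16 and 5.95 in controls and at 12.8, 15.5 and 10.5 in cachectic mice. The secondary class stood at 5.74, 1.43 and 2.01 in controls and at 10.6, 8.44 and 118 in cachectic mice. None of the 3 sums overlapped between groups. The gap from the highest control to the lowest cachectic mouse was widest in the mature class (12.8 to 265.6) and narrowest in the secondary class (5.74 to 8.44). The 5.74 was that of control replicate 1, of which Camp made up 5.69, and without that library the secondary gap was 2.01 to 8.44 and the primary gap, 6.16 to 10.5, was the narrowest.

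As a share of the summed level of the 10 genes, the mature class took 31.1%, 62.8% and 54.7% in controls and 93.0%, 91.7% and 88.3% in cachectic mice. The primary class took 37.2%, 30.2% and 33.9% in controls and 3.82%, 5.34% and 0.957% in cachectic mice. Of its control sums (6.71, 6.16 and 5.95 CPM per kilobase), Prtn3 alone made up 5.65, 4.83 and 4.06. The limits given above for the Prtn3 count therefore apply to the primary share of controls. The mature share was higher and the primary share lower in every cachectic mouse than in every control. The log2 ratio of the primary to the mature sum was 0.26, -1.06 and -0.69 in controls and -4.60, -4.10 and -6.53 in cachectic mice, with no overlap. That of the secondary to the mature sum was 0.03, -3.17 and -2.26 in controls and -4.87, -4.98 and -3.03 in cachectic mice. These overlapped, because cachexia replicate 3 lay between control replicates 2 and 3. The sums rest on genes chosen with results known and were not tested. Within the classes, the tested genes had a median log2 fold change of 1.30 for 2 primary, 6.56 for 3 secondary and 5.10 for 4 mature genes. The order of the last 2 classes turned without cachexia replicate 3, where the medians were 4.27 for the secondary and 4.56 for the mature genes. The secondary median is the value of Ltf, which reached the count minimum in 0 controls, so the class medians are a description only. The order also turned with limma on log2(FPKM + 1), at 2.17 and 4.39, and on log2(FPKM + 0.1), at 4.41 and 4.98.

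**Figure D3:**
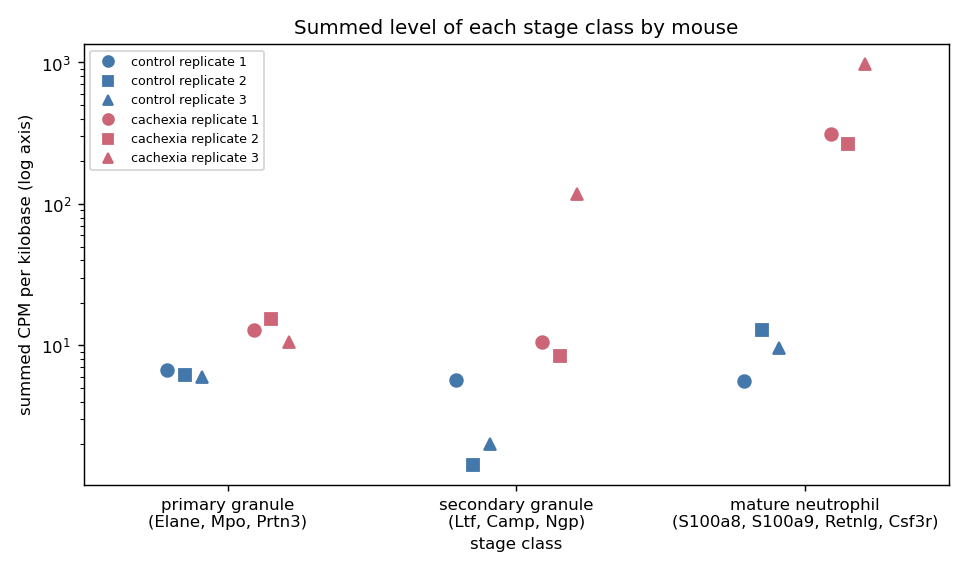
Summed level of each class in each mouse in CPM per kilobase on a log axis, with controls in blue and cachectic mice in red. The mature sums of cachectic mice lie between 265.6 and 969 against 5.62 to 12.8 in controls, and cachexia replicate 3 stands apart in the secondary class at 118.

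The secondary granule genes stood apart in 1 cachectic mouse, while the other classes were split. In cachexia replicate 3 the level was 13.8 times the mean of the other 2 cachectic mice for Ngp, 12.7 times for Ltf and 7.22 times for Camp. It was 3.73 times for S100a8 and 3.75 times for S100a9, but 1.35 times for Retnlg and 1.14 times for Prtn3. For Elane and Csf3r it was 0.425 and 0.424 times, so these 2 genes were lowest in the mouse in which the secondary granule genes were highest. Per kilobase, Ngp stood at 0.785, 0.783 and 25.5 times Csf3r in cachexia replicates 1 to 3. The first 2 mice were nearly the same in this ratio.

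Other neutrophil genes also differed in that mouse. Cd177, a surface protein of neutrophil subsets, stood there at 8.04 times the mean of the other 2 cachectic mice and Mmp8, neutrophil collagenase, at 3.87 times, while Cxcr2 stood at 1.04 times. Of the 28 genes called higher over the neutrophil, transcription factor and recruitment lists, cachexia replicate 3 was the highest cachectic mouse in 19, replicate 1 in 5 and replicate 2 in 4. This describes the 28 genes only, since the same tally over all genes called higher was not made. Csf3, the ligand of Csf3r, had 2, 4 and 0 counts in controls and 0, 0 and 84 counts in cachectic mice. It was thus seen mainly in cachexia replicate 3, the cachectic mouse with the lowest Csf3r, which was still above all controls, and it was not tested for lack of counts.

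**Figure D4:**
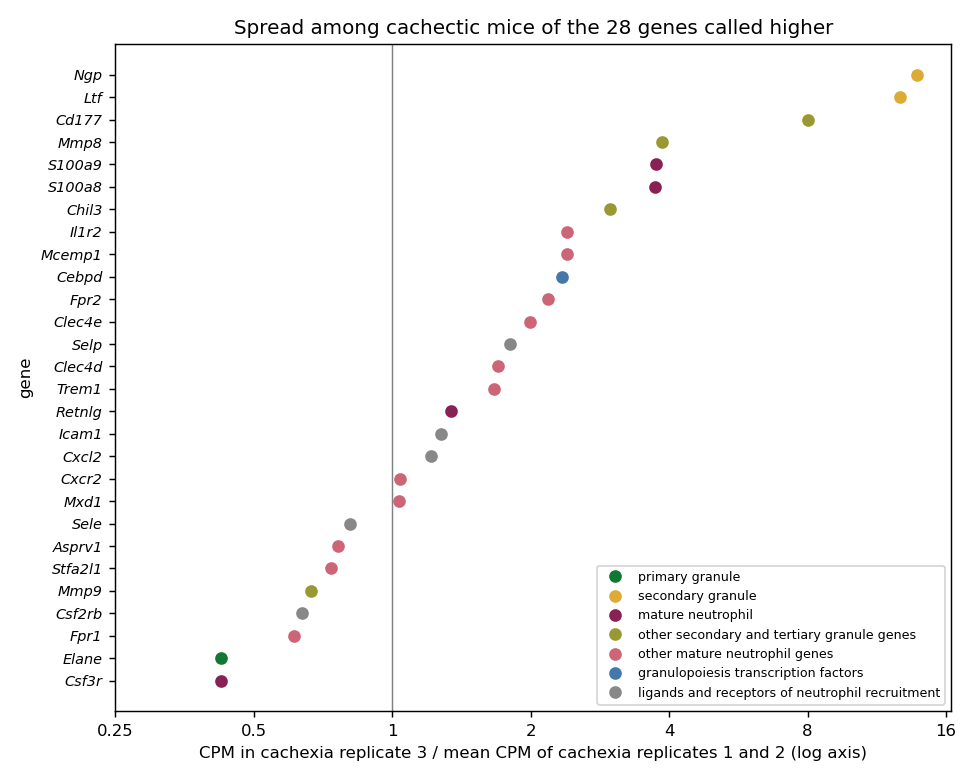
For each of the 28 genes called higher in the neutrophil, transcription factor and recruitment lists, the CPM in cachexia replicate 3 over the mean of cachexia replicates 1 and 2, on a log axis, coloured by list. Ngp and Ltf lie farthest to the right at 13.8 and 12.7, and 8 of the 28 genes lie left of 1, with Elane and Csf3r farthest.

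Further granule genes were examined next. Of 11 other secondary and tertiary granule genes, 10 were tested and 4 rose, with a median log2 fold change of 0.80. Of the 4, Mmp8 reached the count minimum in 0 controls and Cd177 in 1, so these 2 were tested through the cachectic libraries. The 4 that rose were Mmp8 (log2 fold change 6.28, adjusted p = 0.00366), Cd177 (4.73, adjusted p = 0.0237), Chil3, a chitinase-like protein (3.28, adjusted p = 0.0220), and Mmp9, gelatinase B (0.90, adjusted p = 0.0488). The count was 2 without control replicate 1, Lcn2 among them, and 1 without control replicate 3. Lcn2, the siderophore-binding granule protein lipocalin 2, stood at 148, 8.20 and 9.80 CPM in controls and at 18.3, 81.6 and 105 CPM in cachectic mice. Its groups overlapped through control replicate 1, the library that stood apart above, and the log2 fold change was 0.30 (SE 1.08, adjusted p = 0.871). Without that library Lcn2 passed as higher, at a log2 fold change of 2.92 (adjusted p = 0.0385). Its value turned negative without control replicate 2 or 3 or cachexia replicate 3 (-0.21, -0.19 and -0.15) and did not pass in those fits, and the part of epithelium in control replicate 1 was not tested. Olfm4, not tested, reached 4.98 CPM in cachexia replicate 3 and at most 0.292 CPM elsewhere.

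Of 6 other primary granule and promyelocyte genes, only Hp and Serpinb1a had enough counts to be tested, and neither passed. Hp, which encodes haptoglobin and is also made by fat cells and liver, had a log2 fold change of 0.43 (adjusted p = 0.621). Ctsg, which encodes cathepsin G, had at most 0.344 CPM and Ms4a3 at most 0.229 CPM in any library. Bpi was seen in control replicate 1 alone, at 2.06 CPM. Elane was thus the only gene among the 9 primary granule and promyelocyte genes of both lists to pass, with 4 tested.

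Of 22 other mature neutrophil genes, 18 were tested, 11 rose and 0 fell, with a median log2 fold change of 2.13. Of the 11, 8 reached the count minimum in fewer than 3 controls and 6 of these in none, so they entered the test through the cachectic libraries and the count and median describe the list without adding weight. Cxcr2, the receptor for neutrophil chemokines, stood at 0.251, 0.860 and 1.19 CPM in controls and at 10.4, 11.1 and 11.1 CPM in cachectic mice. The cachectic mice were almost level, and the log2 fold change was 3.83 (SE 0.48, adjusted p = 0.00352). Il1r2, a decoy receptor for interleukin 1 (4.94, adjusted p = 0.00356), Mxd1 (0.59, adjusted p = 0.0330) and Clec4d (2.03, adjusted p = 0.0482) were the others with the highest levels. The number that rose was 7 without control replicate 1, 5 without control replicate 3 and 6 without cachexia replicate 2, with 0 lower in each, and without cachexia replicate 3 it was 7, with 1 lower. Ly6g, the surface antigen by which mouse neutrophils are usually sorted, had 0 counts in all controls and 8, 10 and 6 in cachectic mice. Pooled over each group and set against 3 counts over the controls, which a count of 0 allows, its level was 9.04-fold higher. On the same measure Stfa2l1, with 30, 18 and 16 counts, was 24.1-fold higher. Neither value allows for counting error in the cachectic counts or for spread between mice, so neither is a firm lower bound. Stfa3 had 0 counts in all 6 libraries.

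Among 8 granulopoiesis transcription factors, 7 were tested and Cebpd alone rose (log2 fold change 2.13, adjusted p = 0.00807). Over all genes tested 9.0% were called higher, and the list's median log2 fold change was -0.36. Cebpa (-0.95, adjusted p = 0.198), Gfi1 (-1.57, adjusted p = 0.111, at most 6 counts in cachectic mice) and Spi1 were lower in every cachectic mouse than in every control. Cebpb (0.68, adjusted p = 0.0656) was higher in every cachectic mouse, and none of these passed. Without cachexia replicate 1, 1 gene rose and 1 fell. Fat cells also express Cebpd. Cebpe, the factor of the secondary granule stage, was too low to be tested, at 0.401, 0.630 and 0.963 CPM in controls and 0.117, 0.0614 and 0.459 CPM in cachectic mice. Spi1, the gene of PU.1, had a log2 fold change of -0.36 (adjusted p = 0.110).

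Of 16 ligands and receptors of neutrophil recruitment, 12 were tested and 5 rose. Selp, P-selectin of endothelium and platelets, stood at 10.2, 10.9 and 7.37 CPM in controls and at 53.3, 64.1 and 106 CPM in cachectic mice. It had a log2 fold change of 2.97 (adjusted p = 0.00162) with no overlap. Sele, E-selectin, which reached the count minimum in 2 controls (3.19, adjusted p = 0.00388), Icam1, the ligand of neutrophil integrins (1.35, adjusted p = 0.00999), Csf2rb, a shared cytokine receptor chain (1.95, adjusted p = 0.00356), and Cxcl2, a neutrophil chemokine (0.92, adjusted p = 0.0415), were the others. Cxcl1, a second such chemokine, did not pass (0.71, adjusted p = 0.394).

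None of the tested paralogs of Retnlg or of the S100 genes passed as higher. In the resistin family, Retn, the adipocyte resistin, had a log2 fold change of -0.60 (adjusted p = 0.165) and Retnla one of -2.04 (adjusted p = 0.139), and Retnlb had 0 counts in every library. Of 11 S100 genes near S100a8 and S100a9 on chromosome 3, 7 were tested, 0 rose and 2 fell, and S100a5 had 0 counts in every library. Those that fell were S100a1 (-0.46, adjusted p = 0.0467) and S100a4 (-2.37, adjusted p = 0.0331), and the count was 0 without any one of control replicates 1 to 3 or cachexia replicates 1 or 2.

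Markers of other blood cells were set beside these values. All 6 erythroid genes tested of 7 rose, with a median log2 fold change of 2.72, and their sum was 451, 252 and 275 CPM in controls and 2856, 1334 and 2557 CPM in cachectic mice. Hbb-bs, a beta globin, was the most abundant and Slc4a1, which reached the count minimum in 0 controls, changed most (4.08). Like Elane, Ltf, Ngp, S100a8, S100a9, Retnlg and Csf3r, the erythroid sum was higher in every cachectic mouse than in every control. Among cachectic mice it was highest in replicate 1, as was Csf3r. Elane was highest in replicate 2, and the others of these genes in replicate 3. The part of blood in the tissue was not tested. Of 6 platelet genes, 4 were tested and 1 fell, Pf4, also the most abundant (-0.76, adjusted p = 0.0484), and Ppbp had the largest value (1.58, adjusted p = 0.0513). Without control replicate 2 or 3 or cachexia replicate 2 or 3 no platelet gene passed, and without control replicate 1, 1 rose and 0 fell, so the Pf4 call was lost without any of these 5 libraries. Gp1ba (1.25, adjusted p = 0.167) and Itga2b (1.11, adjusted p = 0.0626) were the other platelet genes tested, and the list's median log2 fold change was 1.18. The platelet count also depended on the model. With DESeq2, and with edgeR without its legacy option, 2 rose and 1 fell, and with limma-voom 1 rose and 1 fell. With limma on log2 FPKM 1 rose and 0 fell, and with plain library totals 0 passed. The platelet sum, most of which was Pf4, was 59.5, 56.2 and 55.5 CPM in controls and 49.2, 31.0 and 39.9 CPM in cachectic mice.

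Of the other leukocyte lists, 1 gene rose. Of 6 monocyte genes, all tested, 2 fell, Fn1 (-2.18, adjusted p = 0.00621), the most abundant and also a fibroblast gene, and Ccr2 (-1.72, adjusted p = 0.00302), and their sum was 751, 1284 and 994 CPM in controls and 398, 265 and 376 CPM in cachectic mice. Of 9 macrophage genes, Mertk rose (0.85, adjusted p = 0.0320) and Mrc1 fell (-0.90, adjusted p = 0.0210), and Csf1r was the most abundant. Of 8 mast cell and basophil genes, 4 were tested and 3 fell, led by Mcpt4 (-2.57, adjusted p = 0.00315), with Cpa3 the most abundant. Among lymphocyte genes, 0 of 5 B cell genes passed, with Cd79b the most abundant and Pax5 the largest value (-1.36, adjusted p = 0.149), and 1 of 5 T cell genes tested fell (Trac, -1.67, adjusted p = 0.0284), with Cd4 the most abundant. The eosinophil list had 1 gene tested, Ear2 (-1.32, adjusted p = 0.0594), and Epx, Ear1 and Ear6 had 3 counts or fewer in every library. Of the macrophage genes, 0 rose and 1 fell without control replicate 1, 1 rose and 0 fell without cachexia replicate 2, 2 rose and 0 fell without cachexia replicate 3, and 0 passed without control replicate 2 or 3. The T cell count was 0 without any one library, and 1 eosinophil gene passed, as lower, without cachexia replicate 3.

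**Figure D5:**
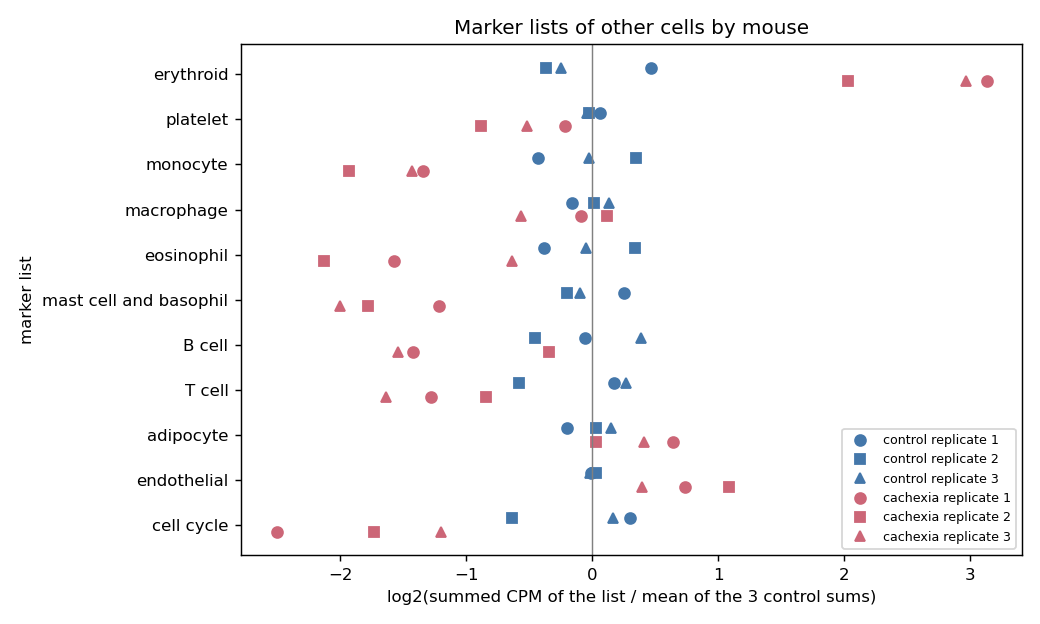
Summed CPM of each marker list in each mouse as the log2 ratio to the mean of the 3 control sums, with controls in blue and cachectic mice in red. The erythroid and endothelial sums of cachectic mice lie to the right of all controls. The monocyte, mast cell, cell cycle, T cell, eosinophil and platelet sums lie to the left.

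Markers of fat cells were abundant in all libraries. Of 7 adipocyte genes, Cidec (0.87, adjusted p = 0.0322) and Pnpla2 (1.08, adjusted p = 0.0197) rose, 0 fell, Cfd was the most abundant, and Plin1 had the largest value (-1.44, adjusted p = 0.0570). Of 6 endothelial genes, 2 rose, led by Pecam1 (adjusted p = 0.0170), also the most abundant, and also carried by neutrophils and platelets. The endothelial sum was 1263, 1301 and 1259 CPM in controls and 2125, 2706 and 1674 CPM in cachectic mice, with no overlap. Selp, Sele and Icam1 were likewise higher in every cachectic mouse than in every control. Among cachectic mice the order differed. The endothelial sum was highest in replicate 2, Selp and Icam1 in replicate 3, and Sele in replicate 1. The part of endothelium in those values was not tested. Of 6 cell cycle genes, 3 fell, led by Aurkb (-2.10, adjusted p = 0.0144), with Mki67 the most abundant. Without control replicate 3 the adipocyte, endothelial and cell cycle counts were each 0, and without control replicate 2 the first of these and the endothelial count were 0. Of the adipocyte genes, 1 rose and 0 fell without control replicate 1 or cachexia replicate 2 or 3, and 0 rose and 1 fell without cachexia replicate 1. The endothelial count was 1 without control replicate 1 or cachexia replicate 1 or 2 and 5 without cachexia replicate 3, and the cell cycle count was 1 without cachexia replicate 2. In the early myeloid progenitor list, 1 of 5 genes tested rose, and that gene was Elane, while Cd34, also an endothelial gene, was the most abundant.

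The tested protein-coding genes most like 3 of the 10 over the 6 mice were found by Pearson's r of log2 CPM, as a description of 6 points that fall into 2 groups. For Ltf they were Mrgbp, Cd177, Ngp, Cep95 and Hnrnph3 (r from 0.995 to 0.999). For S100a8 they were Appl2, Ell, Map1lc3b, Clk4 and Rab3gap1, and for Csf3r Cdc42ep4, Rdx, Gaa, Apba3 and Tmem109. Only the list for Ltf held other neutrophil granule genes, Cd177 and Ngp.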

How the data were processed

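RNA of whole eWAT was made into NEBNext Ultra libraries and read as pairs. The authors removed low-quality reads, aligned with Hisat2 and deposited a table of raw counts per gene (featureCounts 1.5.0-p3, per the labels) and a table of FPKM values computed by the authors from those counts and gene lengths. The labels name the build mm9, but the coordinates in the files match GRCm38: 99.8% of the gene identifiers are in GENCODE M21, 98.3% of these with the same coordinates, all 10 genes included. Another table holds the authors' own fold changes and p-values, made with DESeq2 1.16.1, and 8 columns of normalised values. It was not used.

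Counts were tested with edgeR 4.0.16 (R 4.3.3; filterByExpr with a minimum count of 10, TMM factors, quasi-likelihood F test in its legacy form, Benjamini-Hochberg over 16003 of 54532 genes, threshold 0.05), with no covariate. CPM were computed by edgeR's definition on the summed counts of tested genes after TMM; CPM per kilobase divides by the deposited gene length. Alternatives used limma 3.58.1, DESeq2 1.42.0, other scalings and filters, and each library left out. Single genes were also tested by exact permutation of log2(CPM + 0.5), a pseudocount of 0.5. The code was tested on simulated data. No pair of libraries agreed within sampling noise: the mean chi-square per gene was at least 13. Counts carry counting error, so a value of 3 counts or fewer is treated as the limit of detection; a count of 3 was between 0.151 and 0.197 CPM. p-values measure the spread between the 3 libraries of a group, and neither labels nor methods say whether tissue was pooled.

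All 10 genes were named. Of the other gene lists, those that passed were named, or the 4 with the highest mean CPM where more than 4 passed, with Lcn2, Csf3, Cxcr2 and Ly6g always, and genes at 0 in all samples; of marker lists, the most abundant and the most changed gene. The other genes named (Sele, Hp, Serpinb1a, Ctsg, Ms4a3, Bpi, Olfm4, Stfa2l1, Cebpa, Cebpb, Cebpe, Gfi1, Spi1, Cxcl1, Retn, Retnla, further genes of a marker list, the epithelial genes and the gene neighbours) were chosen after their values were seen. The 10 genes and all lists were chosen with earlier results of these data known.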

Additional observations from a re-analysis of the deposited data

How the results depend on the processing

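Across 17 alternatives, 2 of them chosen after the data were seen (edgeR without its legacy option, and DESeq2 without its outlier cutoff), S100a8 and Csf3r passed in 17 of 17, S100a9 and Retnlg in 16 of 16, Elane in 12 of 17, Ltf in 10 of 15 and Ngp in 11 of 15, while Prtn3 passed in 0 of 17 and Camp in 0 of 16. Each kept its direction except Camp, which turned to -0.64 without cachexia replicate 3 and reached 2.07 without control replicate 1. With at least 10 counts required in every library, 4 of the 10 genes could be fitted and 3 passed, 2 of them mature; S100a9, Retnlg, Ltf, Ngp and Camp had no fit there. Of the secondary granule genes, 0 passed with limma-voom (adjusted p = 0.125 for Ltf and 0.131 for Ngp) and 0 with limma fitted to log2(FPKM + 1) (adjusted p = 0.124 and 0.0523); the cause was not tested. DESeq2 gave no p-value for Ltf and Ngp, and without its outlier cutoff it gave adjusted p = 5.61e-05 and 0.00169. Over all genes the count of 2821 ranged from 828 to 2339 with a library left out and was 3884 with DESeq2, and the median log2 fold change of all genes stayed between -0.0416 and 0.0465. With a library left out, the count ranged from 4 to 7 for the 10 genes, from 0 to 1 for the primary, from 0 to 2 for the secondary and was 4 for the mature class. Same-numbered samples did not deviate together (correlations -0.00314, -0.0113 and 0.00849), so no pairing by number was seen, although 3 libraries a group cannot settle it. With a replicate block 1881 genes passed, and the primary count went from 1 to 0 (Elane, adjusted p = 0.0505). That block also took the counts of macrophage, adipocyte, neighbouring S100, platelet and T cell genes to 0, and the endothelial count to 1. Depth limits Mpo, Ly6g and the controls of Ltf, Ngp and Retnlg, which rest on few counts.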
